A study of Mus musculus with 6 samples.

Results

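The genes described here are 38 targets or partners of ATF4, the transcription factor that switches on amino acid synthesis and uptake when cells run short of amino acids or are otherwise stressed. The tRNA synthetases, which belong to the same programme, were left out of the list and are given only for comparison. The list was put together from what is known of ATF4, with earlier results of these data in view, and its members were selected on their level in these files as well, since only genes whose FPKM averaged 1 or more across the 6 libraries entered the test. All 38 symbols were found among the 23284 genes of the files, and 36 of them were among the 11703 genes tested. The RNA is that of C1498-EGFP, a C57BL/6 mouse line of acute myeloid leukemia (AML) that carries EGFP from a retrovirus and was grown from a single clone. The cells were injected into the veins of wild-type C57BL/6J mice and sorted as GFP+ CD49b+ cells from the marrow of femur, tibia and pelvis on day 21 after transfer. Of the 6 mice, 3 had received cytarabine, a nucleoside analog that blocks DNA synthesis, and 3 had not. The labels name the controls both PBS and untreated, and the dose and days of cytarabine are not given for these mice in particular. The 6 libraries, 1 per mouse, are called cytarabine 1 to 3 and control 1 to 3, and values in a row are always in the order 1, 2, 3.

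When an amino acid is scarce, uncharged tRNA activates the kinase GCN2, which phosphorylates the initiation factor eIF2α. General translation then slows, while the messenger of Atf4 is translated more, so that much of the control of ATF4 lies in its protein and not in its RNA. ATF4 binds DNA as a dimer with C/EBP proteins such as C/EBPγ, at sites called C/EBP-ATF response elements or amino acid response elements. Its targets make serine, glycine, asparagine, proline and one-carbon units, carry amino acids into the cell and, through CHOP, TRIB3 and CHAC1, also limit the response or lead to cell death. Growing cells use the same targets, since mTORC1 raises ATF4 when growth factors are present.

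The core of such an element, TGATGNAA (or TTNCATCA on the other strand), was searched in the 300 bases from 250 before to 50 after the RefSeq transcription start (assembly GRCm38.p6). A window was given for 32 of the 38 genes, and 9 of these held the element (28.1%), against 4.51% of the windows of 27025 mouse genes and 2.68% of those of 8362 genes tested here. The members were chosen as targets or partners of ATF4, so the higher share describes the list and is not a test of it. The following windows show the element in members of both kinds described below. Asns, Chac1, Pycr1 and Slc1a4 were lower in all cytarabine libraries than in any control, while Trib3, which was also lower in mean, and Slc7a11 overlapped between the groups. All run 5′ to 3′ on the strand of the gene, with each match in capitals.
Asns, chr6:7693210-7693269, minus strand: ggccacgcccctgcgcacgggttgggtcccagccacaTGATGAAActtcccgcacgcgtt
Chac1, chr2:119351023-119351082, plus strand: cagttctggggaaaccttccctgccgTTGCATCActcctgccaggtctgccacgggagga
Pycr1, chr11:120643818-120643877, minus strand: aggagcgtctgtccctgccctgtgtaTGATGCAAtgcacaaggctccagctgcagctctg
Slc1a4, chr11:20332699-20332728, minus strand: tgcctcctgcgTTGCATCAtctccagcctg
Trib3, chr2:152344028-152344057, minus strand: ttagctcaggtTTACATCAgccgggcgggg
Slc7a11, chr3:50443646-50443705, minus strand: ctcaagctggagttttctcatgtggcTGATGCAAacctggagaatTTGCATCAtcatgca
Counted from the transcription start, the match of Asns began at -23, that of Pycr1 at -103 and that of Chac1 at -193. The match of Slc1a4 lay across the start itself, from -4 to 4, and that of Trib3 began at 15. Slc7a11 held a pair of matches on opposite strands, which began at -66 and -47. Of the 18 members with a window whose groups did not overlap, 4 held the element, and of the 14 with overlapping groups 5 did, which were Atf3, Nupr1, Slc7a11, Trib3 and Vldlr. The letters were therefore found in members of both kinds, and a match is a description of the sequence and not a measured binding site.

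The libraries were not alike in other RNA, and what part it had in the levels of the genes below was not tested. The deposited values are FPKM, which hold no counts, and the depth inferred from the steps of low values ran from 11500000 to 18890000 reads. At these depths 3 reads on a transcript of 2000 bases are worth 0.088 to 0.145 FPKM. The summed FPKM of 11 colon epithelium genes was 3774 and 4136 in cytarabine 2 and 3 and 1794 in control 1, against 274 in cytarabine 1 and 16.7 and 17.0 in control 2 and 3. The sum of 9 heart genes was 2521, 541 and 52.6 in the controls and 7.46, 22.7 and 686 with cytarabine, while 9 neutrophil genes summed to 1436, 202 and 193 with cytarabine and to 1443, 2050 and 2012 in controls. Erythroid genes reached 147 in cytarabine 1 and at most 37.9 elsewhere, and 9 myeloid genes summed to 160 in cytarabine 1 and at most 39.0 elsewhere. Of the 9 myeloid genes in that sum, Flt3 was at 0.24 FPKM or less and Cebpa between 0.46 and 2.18 FPKM in these cells labelled AML. Mpo and Elane were at 71.1 and 81.7 FPKM in cytarabine 1 and at most 12.3 and 9.94 FPKM elsewhere. Csf3r and Itgam of the same sum were at 1.23 and 2.30 FPKM in cytarabine 1, below every control. Of 7 T cell genes Cd3g was at 449 to 652 FPKM and Cd3e at 130 to 199 FPKM, while 4 (Cd4, Cd8a, Cd5 and Cd247) stayed below 1 FPKM throughout. Of 6 natural killer cell genes Klrd1 was at 86.6 to 139 FPKM and Klrk1 at 35.0 to 61.1 FPKM, while 3 stayed below 1 FPKM throughout. Itga2, which encodes the CD49b used in the sort, had 8.11, 7.79 and 7.88 FPKM with cytarabine and 10.6, 13.3 and 12.8 FPKM in controls. In bulk RNA, fewer cells of a type and less RNA per cell cannot be told apart.

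Most of the amino acid genes were lower in the cells from cytarabine-treated mice, while Atf4 itself and most of the transcription factors around it were not separated between the groups. Of the 36 members tested, 21 were lower at an unadjusted p under 0.05 from limma (9.81% of all genes tested) and 0 were higher (7.6% of all genes tested). In 20 members all 3 cytarabine values lay below all 3 control values (12.9% of all genes tested), in 0 they lay above (10.9% of all genes tested), and in 16 the groups overlapped. The log2 fold change of FPKM + 1 was negative in 30 members and positive in 6, with a median of -0.49 against -0.0015 over all genes tested. Because the members were chosen with this contrast known, these counts describe the list and are not a test of it. No member passed the threshold after adjustment over all 11703 genes, where limma called 0 genes at an adjusted p under 0.05 and 2038 at an unadjusted p under 0.05. The smallest adjusted p of a member was 0.131, and those of the 21 lower members ran from 0.131 to 0.275. The ratio of control to cytarabine mean in these 21 ran from 1.14 to 3.04, and their median level with cytarabine was 63.0% of that in controls. With the neutrophil genes as a covariate, 13 members instead of 21 had an unadjusted p under 0.05 and a negative value. Over all genes tested the same count was 743 instead of 1148. The part of neutrophil RNA in the result was not tested further. The mean log2(FPKM + 1) of the neutrophil genes was itself lower in each cytarabine library (5.36, 3.44 and 3.41) than in each control (5.83, 6.40 and 6.40). With that covariate the log2 fold change moved by more than 1.5 times towards 0 in 8 of the 21 members, to -0.15 in Slc7a1, -0.16 in Psph, -0.20 in Xpot, -0.23 in Shmt2, -0.28 in Psat1, -0.32 in Slc7a5, -0.33 in Eif4ebp1 and -0.53 in Mthfd2. It moved by as much away from 0 in 3 members, to -1.13 in Atf5, -1.29 in Gpt2 and -1.82 in Trib3. Slc1a4 and Slc6a9, the lower members with the largest fold changes, were at -1.24 and -1.85.

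**Figure D1:**
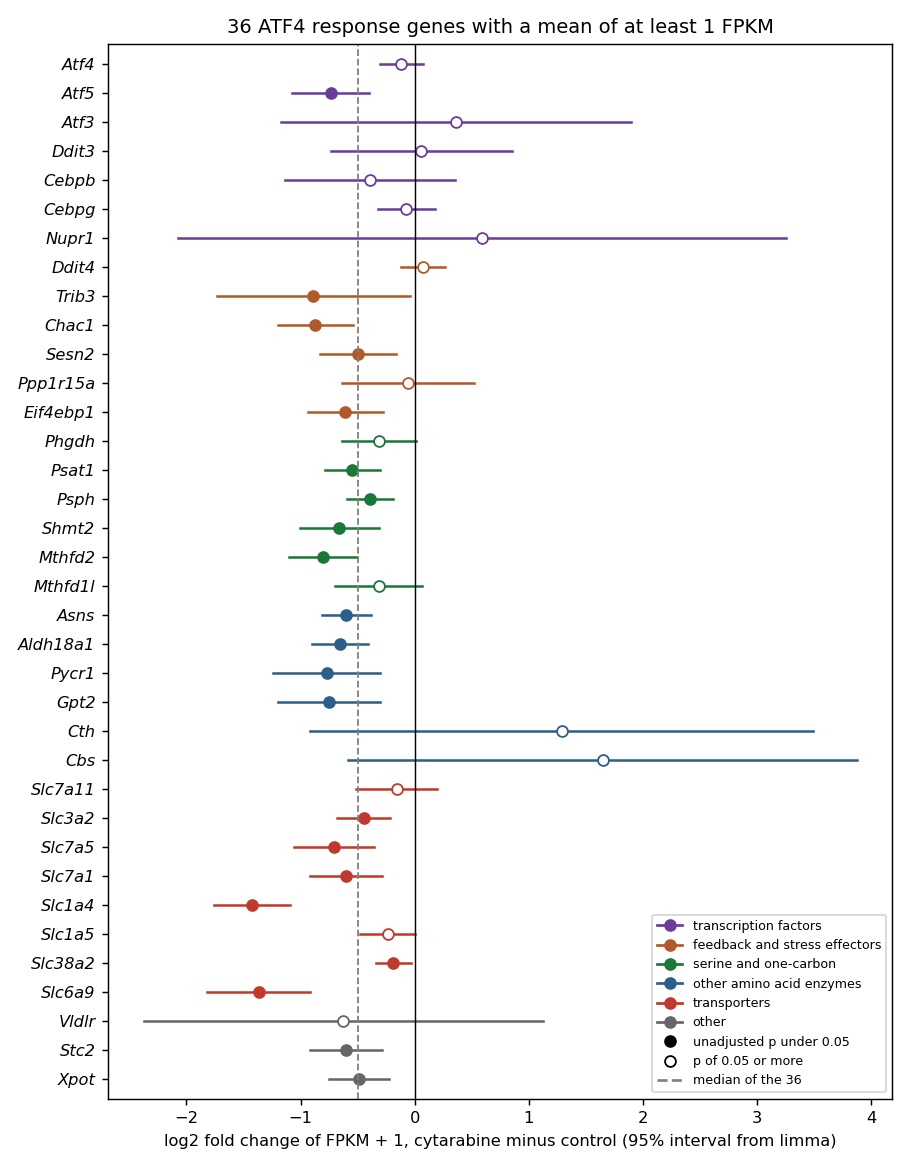
Log2 fold change of FPKM + 1 (horizontal axis, cytarabine minus control) of each of the 36 members tested, with the 95% interval from limma, 3 mice per group. Slc1a4 at -1.43 and Slc6a9 at -1.37 lie farthest below 0, while Atf4 lies at -0.12 and the intervals of Nupr1, Cbs and Cth are the widest.

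Of the 7 transcription factors, 1 was lower at an unadjusted p under 0.05 (9.81% of all genes tested), and in the others the groups overlapped. Their median log2 fold change was -0.07, from values of both signs. Some differences were poorly determined, with 95% intervals from -2.07 to 3.26 in Nupr1, -1.17 to 1.90 in Atf3 and -1.14 to 0.35 in Cebpb. Atf4 (chromosome 15, 80255184 to 80257541, GRCm38) had 190.4, 224 and 194 FPKM with cytarabine and 214, 220.4 and 224 FPKM in controls. Its level was high in every library, above that of 96.5% of the genes tested, and the groups overlapped, with cytarabine 2 as high as the controls. The log2 fold change was -0.12, with a 95% interval from -0.31 to 0.07. The exception among the factors was Atf5, a related factor that ATF4 induces and that is itself under translational control. Atf5 had 7.93, 11.0 and 9.36 FPKM with cytarabine and 18.1, 14.5 and 16.3 FPKM in controls, so that the groups did not overlap. Its exons share 82 bases with those of Nup62 on the opposite strand, a gene at 70.6 to 84.3 FPKM. Its mean was 9.43 ± 1.54 FPKM against 16.3 ± 1.78 FPKM (SD, n = 3 mice each), a log2 fold change of -0.74 (SE 0.14, adjusted p = 0.137 by limma).

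Ddit3, which encodes the pro-death partner CHOP, had 24.4, 54.7 and 33.3 FPKM with cytarabine and 45.0, 28.1 and 31.2 FPKM in controls. The highest values came from cytarabine 2 and control 1 and the groups were mixed, with a log2 fold change of 0.06 and a 95% interval from -0.74 to 0.85. Its exons share 68 bases with those of Mars on the other strand. Atf3, an early factor induced by many stresses, had 0.258, 2.83 and 4.38 FPKM with cytarabine and 1.54, 2.32 and 0.440 FPKM in controls, so it was lowest in 1 library of each group. Cebpg, the dimer partner of ATF4, ranged only from 15.1 to 18.9 FPKM over all 6 libraries, and its log2 fold change was -0.07 with a 95% interval from -0.32 to 0.18. Cebpb, another partner, ranged from 3.52 to 10.8 FPKM, with its highest value in control 1, and shares 312 bases of exon with Tmem189 on the opposite strand, a gene at 46.2 to 60.6 FPKM. Nupr1, a small chromatin protein induced by stress, had 2.55, 26.8 and 33.0 FPKM with cytarabine and 21.4, 11.5 and 2.48 FPKM in controls. It was thus higher in the libraries with much colon transcript than in the others, in both groups. The same order, with cytarabine 2, cytarabine 3 and control 1 above the other 3 libraries, was seen in 5 members, which were Ddit3, Cebpb, Nupr1, Cth and Cbs. The share of all genes tested with this order was not counted, so the 5 are a description only. The part of colon RNA in their levels was not tested.

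Among the stress effectors, 4 of 6 were lower at an unadjusted p under 0.05 (9.81% of all genes tested), with a median log2 fold change of -0.55 for the group. Chac1, which breaks down glutathione, had 4.35, 6.03 and 4.92 FPKM with cytarabine and 11.1, 9.15 and 10.1 FPKM in controls. Each control thus lay well above each cytarabine library, and the means were 5.10 ± 0.850 and 10.1 ± 0.971 FPKM (SD, n = 3 each). Its log2 fold change was -0.87 (SE 0.13, adjusted p = 0.131). Sesn2, a leucine sensor that restrains mTORC1, had 5.75, 7.68 and 5.66 FPKM with cytarabine and 10.3, 8.90 and 8.80 FPKM in controls (log2 fold change -0.50, SE 0.14, adjusted p = 0.185). Eif4ebp1, which encodes the translation repressor 4E-BP1, was the most abundant of these genes, at 70.5, 70.4 and 53.3 FPKM with cytarabine and 88.6, 102 and 104 FPKM in controls. It did not overlap either, and its log2 fold change was -0.61 (SE 0.13, adjusted p = 0.154). Trib3, a pseudokinase that feeds back on ATF4, had 3.30, 8.56 and 4.37 FPKM with cytarabine and 14.1, 8.29 and 8.96 FPKM in controls. In Trib3 cytarabine 2 lay above control 2, so it was the 1 member with an unadjusted p under 0.05 whose groups overlapped (log2 fold change -0.89, SE 0.34, adjusted p = 0.275).

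In the other stress effectors, Ddit4 and Ppp1r15a, the groups overlapped and the intervals spanned 0. Ddit4 (REDD1), an inhibitor of mTORC1, had 50.3, 46.5 and 50.6 FPKM with cytarabine and 45.1, 50.9 and 44.0 FPKM in controls, and its log2 fold change of 0.08 had a 95% interval from -0.12 to 0.27. Ppp1r15a (GADD34), the phosphatase subunit that reverses eIF2α phosphorylation, ranged from 12.5 FPKM in cytarabine 1 to 23.6 FPKM in cytarabine 2, and all 3 controls lay between these values. Its log2 fold change was -0.06, with a 95% interval from -0.63 to 0.52.

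**Figure D2:**
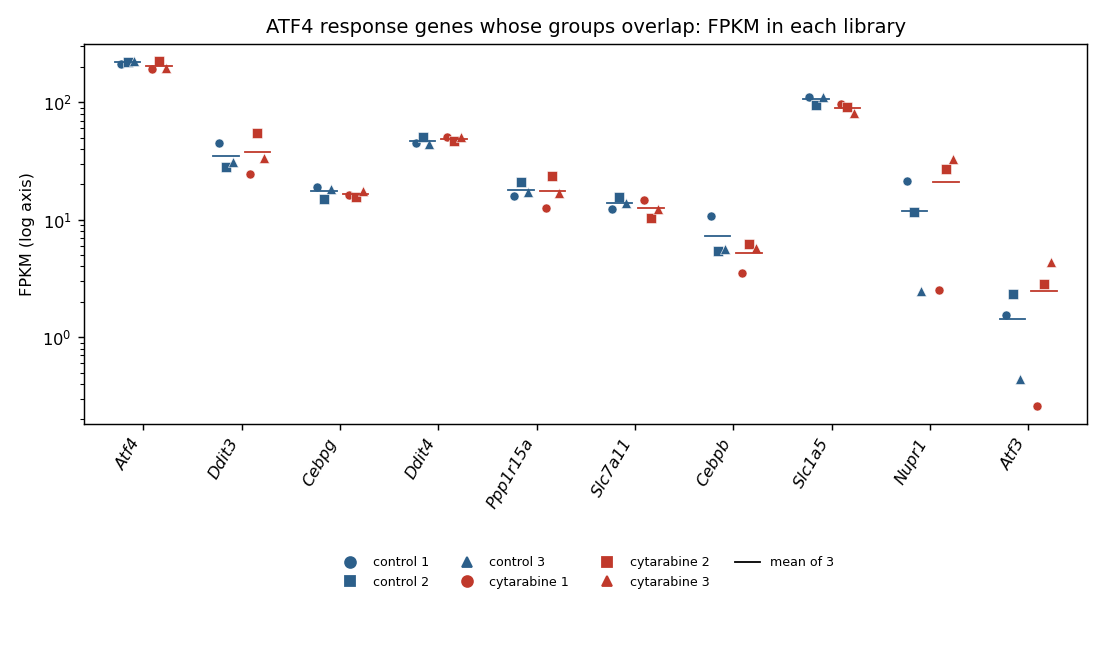
FPKM on a log axis (vertical) in each of the 6 libraries for 10 members whose groups overlapped, with 1 point per mouse and a short line at the mean of the 3 mice. Atf4 lies between 190.4 and 224 FPKM in every library, while Nupr1 spreads from 2.48 to 33.0 FPKM without a division by treatment.

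In serine synthesis and the mitochondrial folate pathway, 4 of the 6 genes tested were lower at an unadjusted p under 0.05 (9.81% of all genes tested), with groups that did not overlap (12.9% of all genes tested), and the median log2 fold change of the group was -0.47. Phgdh, the first and committed enzyme of serine synthesis, had 282, 234 and 209 FPKM with cytarabine and 267, 324 and 306 FPKM in controls. Cytarabine 1 lay above control 1, so the groups overlapped, and the log2 fold change of -0.31 had a 95% interval from -0.64 to 0.01. The next enzyme, Psat1, had 182, 162 and 145 FPKM with cytarabine and 232, 227 and 254 FPKM in controls (log2 fold change -0.55, SE 0.10, adjusted p = 0.137). Psph, the last step of the pathway, had 67.0, 58.7 and 57.1 FPKM with cytarabine and 77.9, 77.3 and 84.5 FPKM in controls (log2 fold change -0.39, SE 0.08, adjusted p = 0.151). The annotated exons of Psph share 452 bases with those of Cct6a on the opposite strand, a gene at 375 to 499 FPKM, and it is not stated whether strand was used in counting, so its level is uncertain.

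Serine feeds the mitochondrial folate enzymes. Shmt2, which splits serine into glycine and a one-carbon unit, had 176, 153 and 125 FPKM with cytarabine and 213, 243 and 258 FPKM in controls. Its mean was 151 ± 25.4 FPKM against 238 ± 22.7 FPKM (SD, n = 3 each), with a log2 fold change of -0.66 (SE 0.14, adjusted p = 0.152). Mthfd2, which oxidizes the one-carbon unit in mitochondria, had 102, 86.5 and 77.4 FPKM with cytarabine and 169, 143 and 154 FPKM in controls. All controls lay above all cytarabine libraries by more than the range within either group, and the log2 fold change was -0.81 (SE 0.12, adjusted p = 0.131). Mthfd1l, which releases formate from this pathway, had 36.8, 27.2 and 26.8 FPKM with cytarabine and 32.7, 38.6 and 41.8 FPKM in controls, and overlapped because cytarabine 1 lay above control 1. Aldh1l2, which burns the formyl unit, was under the limit for the test, at 0.104 to 0.841 FPKM, and overlaps an opposite-strand gene.

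Of the enzymes that make other amino acids, 4 of 6 were lower with no overlap (12.9% of all genes tested), with a median log2 fold change of -0.63. Asns (chromosome 6, 7675169 to 7693254), the asparagine synthetase and a standard readout of ATF4, had 142, 131 and 119 FPKM with cytarabine and 199, 186 and 208 FPKM in controls. The means were 131 ± 11.7 and 198 ± 11.1 FPKM (SD, n = 3 each), with a gap between the groups of more than the spread within either. The log2 fold change was -0.60 (SE 0.09, adjusted p = 0.131). Aldh18a1, the first enzyme of proline synthesis, had 44.6, 46.3 and 38.9 FPKM with cytarabine and 71.2, 61.9 and 73.0 FPKM in controls (log2 fold change -0.65, SE 0.10, adjusted p = 0.131). Pycr1, which completes proline in mitochondria, had 1.18, 0.953 and 0.936 FPKM with cytarabine and 2.58, 2.76 and 2.04 FPKM in controls. With a mean of 1.74 FPKM it was the tested member nearest above the limit of 1 FPKM, and its fold change of -0.77 on the log2(FPKM + 1) scale understates the change of so low a gene (SE 0.19, adjusted p = 0.171). Gpt2, the mitochondrial alanine aminotransferase, had 3.28, 4.99 and 4.38 FPKM with cytarabine and 9.45, 6.59 and 7.30 FPKM in controls (log2 fold change -0.75, SE 0.18, adjusted p = 0.166).

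The remaining 2 enzymes, of cysteine synthesis from homocysteine, behaved in another way. Cbs had 0.388, 9.09 and 6.95 FPKM with cytarabine and 2.48, 0 and 0.0400 FPKM in controls, and passed the limit for the test only through the cytarabine group. Cth had 0.334, 6.31 and 5.89 FPKM with cytarabine and 3.38, 0.0505 and 0 FPKM in controls. Both were thus higher in the 3 libraries with much colon transcript than in the others, in either group, and close to or at 0 in control 2 and 3. Their fold changes were positive, 1.65 for Cbs and 1.29 for Cth on the log2 scale, with 95% intervals from -0.58 to 3.88 and from -0.92 to 3.49.

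**Figure D3:**
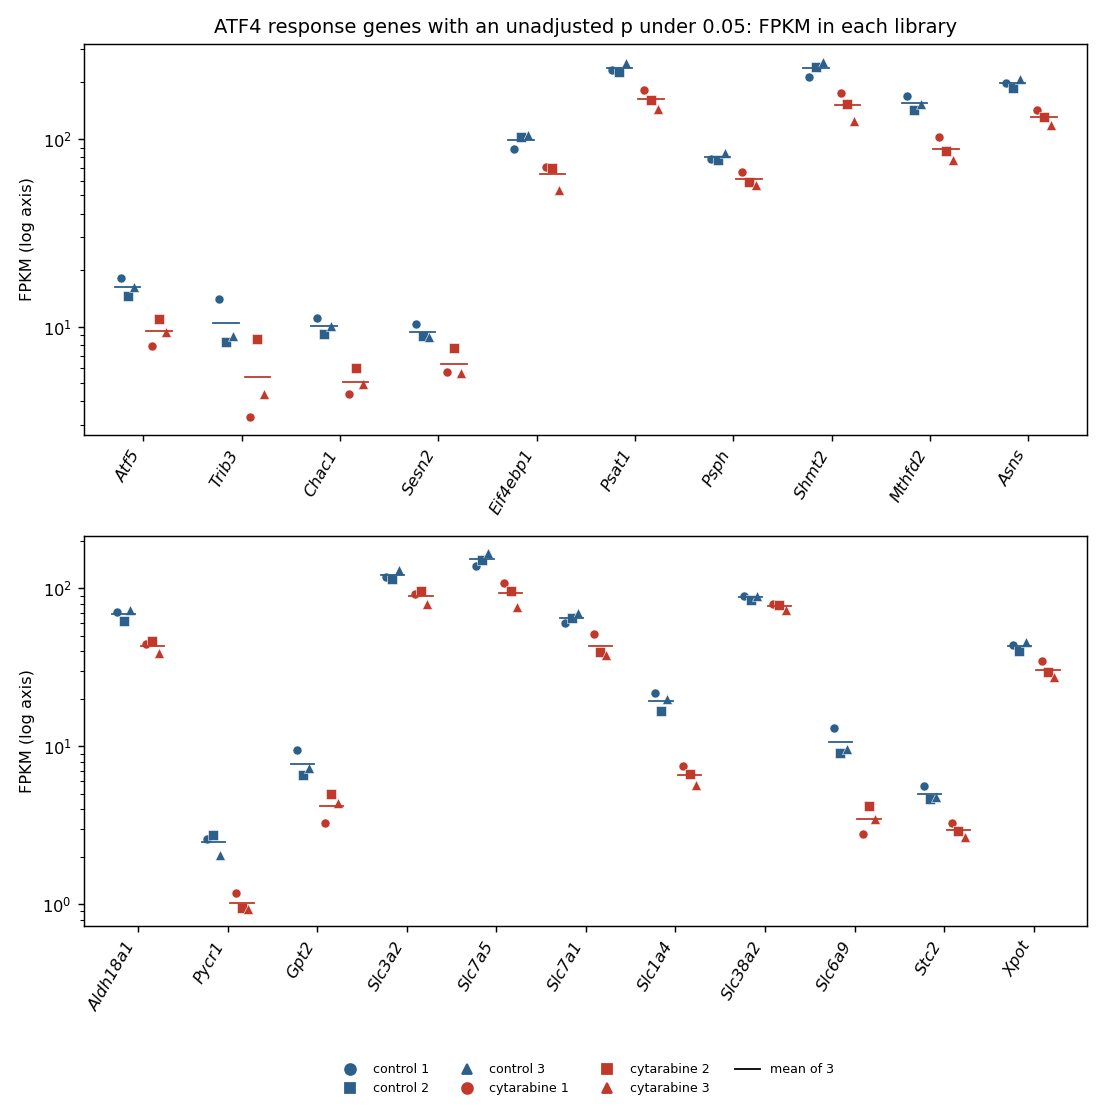
FPKM on a log axis (vertical) in each library for the 21 members with an unadjusted p under 0.05, with 1 point per mouse, a short line at the mean of the 3 mice and the groups marked by colour. In 20 of the 21 all cytarabine points lie below all control points, and in Trib3 the groups overlap.

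The amino acid transporters held the lower members with the largest fold changes. Of 8 tested, 6 were lower at an unadjusted p under 0.05 (9.81% of all genes tested) with no overlap (12.9% of all genes tested), and the median log2 fold change of the 8 was -0.52. Slc1a4 (ASCT1; chromosome 11, 20302180 to 20332713), an exchanger of alanine, serine, cysteine and threonine, had 7.50, 6.64 and 5.71 FPKM with cytarabine and 21.7, 16.7 and 20.0 FPKM in controls. The controls lay far above the cytarabine libraries, with a gap wider than the range within either group, and the means were 6.62 ± 0.896 and 19.5 ± 2.58 FPKM (SD, n = 3 each). Its log2 fold change was -1.43 (95% interval -1.76 to -1.09, adjusted p = 0.131), and its p ranked 3 among the 11703 genes. Slc6a9 (GLYT1; chromosome 4, 117834506 to 117875198), a sodium-driven glycine carrier, had 2.80, 4.21 and 3.45 FPKM with cytarabine and 13.1, 9.08 and 9.62 FPKM in controls. This gave means of 3.49 ± 0.702 and 10.6 ± 2.21 FPKM (SD, n = 3 each) and a log2 fold change of -1.37 (95% interval -1.82 to -0.92, adjusted p = 0.131). On the other strand, the exons of Slc6a9 share 1429 bases with Ccdc24, at no more than 0.375 FPKM, 46 bases with B4galt2, at 3.54 to 3.98 FPKM, and 511 bases with Gm17114, which was not analysed here.

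The heavy chain and the light chains that pair with it were not alike. Slc3a2 (CD98), the heavy chain that brings several light chains to the membrane, had 92.3, 96.1 and 79.6 FPKM with cytarabine and 118, 115 and 132 FPKM in controls (log2 fold change -0.45, SE 0.09, adjusted p = 0.151). Slc7a5 (LAT1), its partner for leucine and other large neutral amino acids, had 108, 96.8 and 76.5 FPKM with cytarabine and 139, 152 and 167 FPKM in controls (log2 fold change -0.71, SE 0.14, adjusted p = 0.149). Slc7a11 (xCT), the partner that exchanges cystine for glutamate, had 14.7, 10.4 and 12.3 FPKM with cytarabine and 12.5, 15.7 and 13.8 FPKM in controls. Its groups overlapped, and its log2 fold change was -0.16 with a 95% interval from -0.52 to 0.20. Whether the difference of Slc7a11 itself differs from that of its partners was not tested.

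Slc7a1, which carries arginine and lysine, had 51.2, 39.8 and 37.9 FPKM with cytarabine and 60.3, 65.4 and 69.9 FPKM in controls (log2 fold change -0.60, SE 0.13, adjusted p = 0.151). Slc38a2 (SNAT2), a sodium-driven carrier of small neutral amino acids, had the smallest of the differences that did not overlap. It had 79.4, 78.8 and 72.7 FPKM with cytarabine and 89.5, 83.9 and 89.5 FPKM in controls (log2 fold change -0.19, SE 0.06, adjusted p = 0.233). The glutamine carrier Slc1a5 (ASCT2) had 97.3, 91.4 and 80.5 FPKM with cytarabine and 111, 95.6 and 111 FPKM in controls, with control 2 just under cytarabine 1. Slc7a3, another carrier of basic amino acids, had 0.176, 0.170 and 0.861 FPKM with cytarabine and 2.33, 1.30 and 0.799 FPKM in controls, and with a mean of 0.939 FPKM it fell just outside the limit for the test.

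Of the last 3 members, Stc2, a secreted glycoprotein induced by stress of the endoplasmic reticulum, had 3.26, 2.92 and 2.68 FPKM with cytarabine and 5.65, 4.61 and 4.74 FPKM in controls. The groups were apart, with a log2 fold change of -0.60 (SE 0.13, adjusted p = 0.151). Xpot, which exports tRNA from the nucleus, had 35.0, 29.6 and 27.4 FPKM with cytarabine and 43.8, 40.1 and 45.6 FPKM in controls (log2 fold change -0.49, SE 0.11, adjusted p = 0.154). Vldlr, a lipoprotein receptor, had 0.142, 0.893 and 2.05 FPKM with cytarabine and 5.58, 2.13 and 0.173 FPKM in controls. Like the heart genes, it was higher in control 1, control 2 and cytarabine 3 than in the other 3 libraries, although the order within these sets differed, and the part of heart RNA in its level was not tested.

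The difference was shared by the 3 cytarabine mice. Over the 36 members, the median log2 difference from the control mean was -0.47 in cytarabine 1, -0.44 in cytarabine 2 and -0.62 in cytarabine 3, while over all genes tested it lay between -0.017 and 0.0006. Among the 20 members with no overlap, cytarabine 3 was the lowest library in 16 and cytarabine 1 in the other 4. Control 3 was the highest in 10, control 1 in 9 and control 2 in 1. Since colon transcripts divided the libraries across the groups, the difference was also taken within each side, which was added after the data were seen and has no test. Cytarabine 1 was set against control 2 and 3 (little colon transcript), where the median of the members was -0.49, and cytarabine 2 and 3 against control 1 (much colon transcript), where it was -0.59. In all, 29 of 36 members were lower within both sides, against 32.7% of all genes tested, 3 were higher within both and 4 differed in direction. The 20 members with no overlap were bound to be lower within both sides, and the genes named next are among them. Each side also rests on 1 library of one group, and the part of colon RNA in the difference was not tested. Slc1a4 differed by -1.18 and -1.67 and Slc6a9 by -1.44 and -1.55 on the log2 scale in the little and the much colon sides. Mthfd2 was at -0.53 and -1.03, Chac1 at -0.99 and -0.91 and Asns at -0.47 and -0.67. The neutrophil genes were also lower with cytarabine within both sides, at a sum of 1436 against 2050 and 2012 FPKM in the first and of 202 and 193 against 1443 FPKM in the second.

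**Figure D4:**
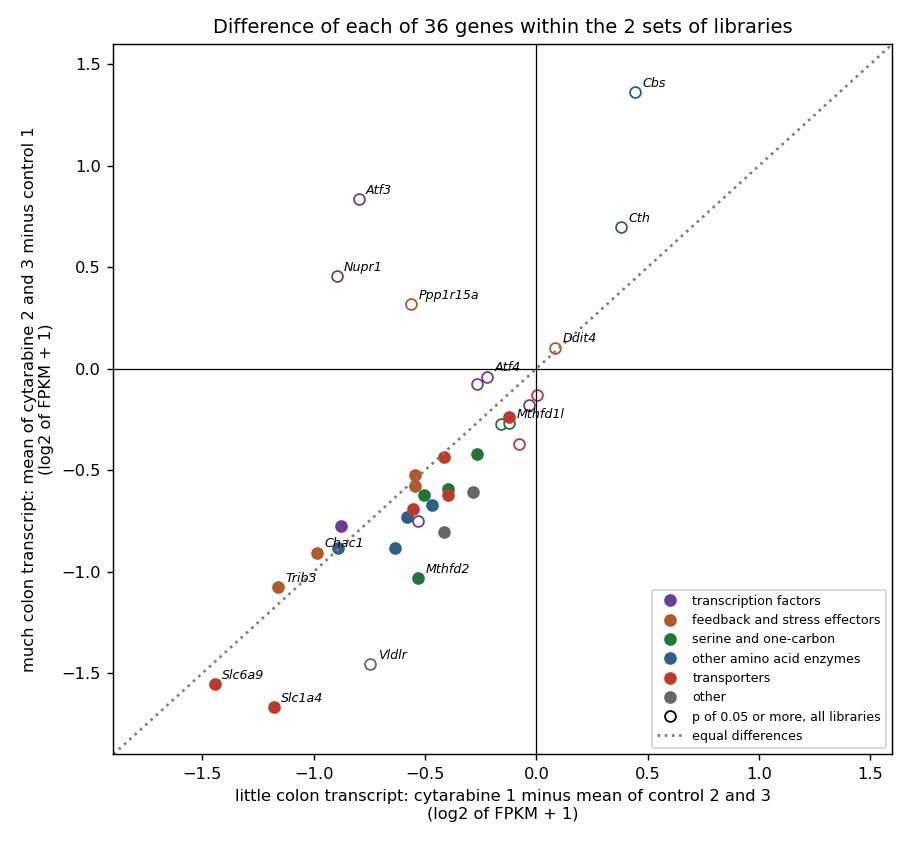
Difference in log2(FPKM + 1) of the 36 members between cytarabine 1 and the mean of control 2 and 3 (horizontal axis) and between the mean of cytarabine 2 and 3 and control 1 (vertical axis), with 1 point per gene. 29 points lie below 0 on both axes, and Slc1a4 and Slc6a9 lie at the lower left.

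Genes around the members were counted in the same fit, and their counts are to be read against the shares of all genes tested given above. Of 17 genes upstream in the integrated stress response (the eIF2α kinases, eIF2 subunits and regulators), 2 were higher and 3 lower at an unadjusted p under 0.05, with a median log2 fold change of -0.08. Impact, an inhibitor of GCN2, had 8.18, 7.98 and 7.84 FPKM with cytarabine and 4.62, 6.21 and 5.09 FPKM in controls (log2 fold change 0.52, adjusted p = 0.156). Eif2ak4, which encodes GCN2 itself, was at 12.6 ± 0.985 FPKM against 14.9 ± 0.957 FPKM (log2 fold change -0.23, adjusted p = 0.268). Eif2ak2 (PKR), a kinase for double-stranded RNA, was at 9.79 ± 0.555 against 7.65 ± 0.844 FPKM (log2 fold change 0.32, adjusted p = 0.215). The other lower genes of this list were Eif2s2, an eIF2 subunit, and Dnajc3, an inhibitor of eIF2α kinases, at log2 fold changes of -0.21 and -0.31. Of 20 tested genes of mTORC1, its regulators and amino acid sensing, 0 were higher and 3 lower at an unadjusted p under 0.05, with a median of -0.11. The 3 were Mtor (-0.30, adjusted p = 0.182), Tsc1 (-0.30) and Depdc5 (-0.28). Without overlap 1 was higher and 7 lower, and 17 of the 20 fold changes were negative.

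Other known targets of ATF4 and CHOP were divided in direction. Of 16 tested, 5 were higher and 3 lower at an unadjusted p under 0.05, and the median log2 fold change was 0.0030. Without overlap 4 were higher and 5 lower, and 8 of the 16 fold changes were negative. The higher genes with the smallest p were Sqstm1 (p62), an autophagy receptor, at 99.3 ± 14.5 FPKM with cytarabine and 74.6 ± 6.13 FPKM in controls (log2 fold change 0.40, adjusted p = 0.216), Atg12 at 0.33 and Map1lc3b at 0.39. The other higher genes, named after their values were seen, were the stress gene Gadd45b at 0.68, the largest of the 5, and the pro-death gene Bcl2l11 at 0.19. The lower genes were Hspa9, a mitochondrial chaperone, at -0.19, Ero1l, an oxidase of the endoplasmic reticulum, at -0.24 and Wars at -0.22. Wars is itself a tRNA synthetase and is counted again among those below. Among 16 genes of the unfolded protein response of the endoplasmic reticulum, which are the regulators Atf6, Xbp1 and Ern1 with the chaperones and folding enzymes they control, 7 were lower and 0 higher, with a median of -0.17. Pdia4, a disulfide isomerase, was at 116 ± 12.3 against 149 ± 5.67 FPKM (log2 fold change -0.36, adjusted p = 0.166), Canx at -0.31 and Pdia6 at -0.29. The 20 cytosolic tRNA synthetases, the part of the ATF4 programme not among the members, held 13 lower and 0 higher genes, with a median of -0.34 and 19 negative values. Their lowest p was that of Iars, at 83.0 ± 8.73 FPKM with cytarabine and 143 ± 12.4 FPKM in controls (log2 fold change -0.78, adjusted p = 0.131), followed by Yars (-0.53) and Nars (-0.36), both at an adjusted p of 0.137.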

How the data were processed

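The deposited values are FPKM per gene, which per the labels and the paper's methods the authors made from single-end reads of stranded poly(A) libraries with TopHat2 2.0.13, Bowtie2 2.2.3, SAMtools 0.1.19 and Cufflinks 2.2.1 on mm10. The gene annotation and the strand setting were not given in the sources used here. The 11703 genes whose FPKM averaged 1 or more were compared on log2(FPKM + 1) by limma (version 3.58.1, R version 4.3.3; linear model, moderated with an intensity trend). The test was two-sided, p-values were adjusted over all of these genes after Benjamini and Hochberg at a threshold of 0.05, and the script was checked on simulated data. An exact permutation test of 3 mice against 3 cannot go below 0.1. The members and all gene lists were chosen with earlier results of these data known. Values per library are given for members with an unadjusted p under 0.05 or groups that do not overlap, for Atf4, Ddit3, Atf3 and Atf5 and for members at the filter's limit, and for some other members chosen after values were seen. Of the lists of genes around the members at most 3 genes in each direction are named, those with the smallest p, apart from Gadd45b and Bcl2l11. Depth was inferred from 2745 genes with 1 transcript, assuming fragments of 200 bases, where 72.6 to 78.3% of low values lay within 0.1 of whole reads. FPKM hold no counts, so no interval of counting error is given. Positions come from GENCODE on GRCm38. Promoters come from RefSeq on GRCm38.p6. Alternatives were other pseudocounts (0.1 and 5), filters (5 FPKM, none), scalings and eBayes settings, a replicate block, covariates for colon and heart or neutrophil genes, and leaving out each library. Plots were made in Python 3.11.15 (matplotlib 3.10.9).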

Additional observations from a re-analysis of the deposited data

How the results depend on the processing

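The 21 lower members kept their sign and stayed short of an adjusted p of 0.05 in all 376 recomputed values, where their adjusted p by limma ran from 0.0517 to 0.991. Many of these signs could not have changed. The eBayes settings, the filters and the replicate block left each fold change as it was. In members whose groups do not overlap, another pseudocount or the loss of a library cannot turn the sign. Single fold changes moved by more than 1.5 times in 8 (smaller) and 3 (larger) of these members with the neutrophil covariate, in 8 with the colon and heart covariates (all larger), in 5 with a pseudocount of 5 (all smaller) and in 1 with a pseudocount of 0.1 (larger). The count of members lower at an unadjusted p under 0.05 fell to 13 with the neutrophil covariate and ran from 19 to 23 without single libraries. Leaving out a library gave 0 to 2 members higher at that p and 0 to 4 higher without overlap. Both largest counts came without cytarabine 1, where 2026 of all genes were higher at that p, against 890 with all libraries. The share of all genes without overlap was not counted at these settings, and with fewer libraries groups are apart more often. The 4 were Cth, Cbs, Atf3 and Nupr1 without cytarabine 1, and the cause was not tested. The members' median was -0.33 with a pseudocount of 5, -0.63 with the colon and heart covariates, and from -0.54 to -0.45 without single libraries. Replicate numbers name different mice and did not pair them, with correlations of deviations of -0.709, -0.247 and -0.594. With the replicate block 19 members were lower and 0 higher at an unadjusted p under 0.05, against 515 and 479 of all genes tested.

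Over all genes, 1 passed the adjusted threshold with a pseudocount of 0.1, 2 without the eBayes trend, 1 with robust eBayes and 0 to 5 without single libraries. Genes higher at an unadjusted p under 0.05 numbered 479 with the replicate block, 297 with colon and heart covariates and 594 to 2026 without single libraries, where 2026 was without cytarabine 1. Lower genes numbered 515 with the block, 278 with colon and heart covariates, 743 with the neutrophil covariate and 585 to 2049 without single libraries, with 2049 again without cytarabine 1. The median of all genes was -0.030 at 5 FPKM or more, 0.019 with no filter, 0.017 at equal sums, 0.014 with median-of-ratios factors, -0.063 after quantile normalization, 0.024 with the neutrophil covariate and -0.019 to 0.0071 without single libraries. Depth limits the members under about 1 FPKM. With 3 mice a group, the p-values by limma set each difference against the spread between these mice, moderated over all genes tested.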
